A study of Mus musculus with 2239 samples.

Results

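The nuclear genome encodes most subunits of the mitochondrial machinery for oxidative phosphorylation, and the transcripts of these genes were examined in single splenic regulatory T cells. The genes were taken by name: every row of the count table whose symbol began with Ndufa, Ndufb, Ndufc, Ndufs, Ndufv, Uqcr, Cox4, Cox5, Cox6, Cox7, Cox8 or Atp5. Of 23725 gene rows, 88 matched, and 82 of these had at least 1 unique molecular identifier (UMI, the tag that marks 1 captured transcript) in the cells kept, where 12952 genes were detected in all. Apart from the need for a UMI, the rule used names and no level. The 88 rows were 38 of complex I, 8 of complex III, 17 of complex IV, 15 of ATP synthase, and 10 that are no subunits: 7 complex I assembly factors (Ndufaf1 to Ndufaf7), the supercomplex assembly factor Cox7a2l, and Atp5s and Atp5sl.

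The cells are labelled male, strain B6 and 7 months old, with a Foxp3 reporter gene and no treatment or number of animals given, and all belong to 1 inDrops library; in this method droplets hold single cells and transcripts are primed at the poly(A) tail. Cells had been sorted as DAPI-, TCRb+, CD4+ and GFP+, a gate for live reporter-positive regulatory T cells (Treg cells). The tissue label reads spleen, while the sample type, spleencolonctrl_tr_rep2a, also names colon, so an admixture of colonic cells cannot be told apart. There was no second group and no replicate: no test between samples could be made, and every interval below covers counting error only, at the 95% level.

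Oxidative phosphorylation is the final stage of respiration. Complex I passes electrons from NADH to ubiquinone, complex III passes them on to cytochrome c, and complex IV hands them to oxygen. All of these pump protons across the inner mitochondrial membrane, and ATP synthase lets the protons return and makes ATP. Treg cells are known for leaning on mitochondrial respiration more than other activated CD4 T cells, which lean on glycolysis. The subunits encoded by mitochondrial DNA were not analysed here.

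Transcription of these genes is classically tied to the nuclear respiratory factors: NRF1, which binds a GC-rich palindrome, and GABP, an ETS-family factor, with YY1 as a further regulator. RefSeq promoters (GRCm38.p6, 250 bases before to 50 bases after each start) were available for 71 of the 82 detected members, as 77 promoters. The windows below run from 100 bases before to 30 bases after the start, 5′ to 3′ on the strand of the gene. Capitals mark exact matches, on either strand, to GCGCATGCG (NRF1), CCGGAAG (ETS) or AAGATGGCG (YY1). The NRF1 letters are nearly palindromic, so 10 capitals in a row are matches on both strands that overlap. Atp5g2, Atp5k and Uqcr11 are shown for the NRF1 letters, and Atp5j for YY1 and ETS letters in 1 window. Cox8a and Cox6a1 are expressed members of isoform families with ETS letters, as is Cox6b1, which is not shown. Uqcrh and Cox7a2l are shown because their transcripts ran against the rest across cells.
Atp5g2, chr15:102671018-102671147, minus strand: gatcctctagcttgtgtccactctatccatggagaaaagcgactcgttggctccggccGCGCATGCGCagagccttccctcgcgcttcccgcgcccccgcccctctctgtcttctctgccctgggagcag
Atp5k, chr5:108434370-108434499, minus strand: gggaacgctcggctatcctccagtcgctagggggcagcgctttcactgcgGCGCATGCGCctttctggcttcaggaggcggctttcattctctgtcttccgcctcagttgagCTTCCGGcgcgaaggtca
Uqcr11, chr10:80406792-80406921, minus strand: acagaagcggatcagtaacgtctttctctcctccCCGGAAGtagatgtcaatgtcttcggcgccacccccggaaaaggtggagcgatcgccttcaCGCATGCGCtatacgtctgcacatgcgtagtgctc
Cox8a, chr19:7217587-7217716, minus strand: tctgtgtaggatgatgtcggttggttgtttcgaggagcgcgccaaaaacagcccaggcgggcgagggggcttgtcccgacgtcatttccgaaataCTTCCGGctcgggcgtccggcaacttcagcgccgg
Cox6a1, chr5:115348929-115349058, minus strand: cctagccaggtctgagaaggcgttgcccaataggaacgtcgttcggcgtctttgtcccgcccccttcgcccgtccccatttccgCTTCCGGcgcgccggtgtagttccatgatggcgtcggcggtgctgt
Atp5j, chr16:84834947-84835076, minus strand: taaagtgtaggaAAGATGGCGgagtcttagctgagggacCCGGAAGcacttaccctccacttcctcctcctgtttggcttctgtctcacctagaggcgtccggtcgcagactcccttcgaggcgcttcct
Uqcrh, chr4:116075041-116075170, minus strand: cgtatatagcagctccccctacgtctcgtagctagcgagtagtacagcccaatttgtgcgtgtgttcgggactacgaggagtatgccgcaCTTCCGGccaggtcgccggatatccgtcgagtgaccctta
Cox7a2l, chr17:83514304-83514433, minus strand: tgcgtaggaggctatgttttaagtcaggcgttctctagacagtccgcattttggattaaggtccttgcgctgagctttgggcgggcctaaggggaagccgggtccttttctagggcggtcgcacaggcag

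The NRF1 letters were in 10 of the 77 member promoters over their full 300 bases (13.0%), against 1.75% of all 32851 promoters in the table and 3.75% of the 3117 promoters of other genes with at least 100 UMIs here. YY1 letters were in 9 member promoters (11.7%), against 1.4% of all and 3.56% of those of the other expressed genes. In 7 of the 8 genes with YY1 letters a match began between base 23 and base 36 of the transcript: Atp5j2, Ndufs6, Ndufs4, Ndufs7, Ndufc1, Ndufa9 and, from 1 of its 2 starts, Atp5sl. ETS letters were in 15 member promoters (19.5%), close to the 20.7% of other expressed genes and above the 8.86% of all promoters. The SP1 box GGGCGG was less frequent in members (41.6%) than in other expressed genes (65.5%). A CCAAT box was in 41.6% of member promoters and 35.6% of other expressed ones, and TATAAA in 7.79% and 7.22%. The member promoters are those of members detected at any level, while the other expressed genes have at least 100 UMIs, so the abundance cut-offs differ. These counts describe letters in a window and not binding.

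Cells with at least 500 UMIs were kept: 2055 of 2239 cells with 2156277 UMIs, from 500 to 4329 per cell, with medians of 974 UMIs and 551 genes. Of all UMIs, 35.39% were from ribosomal protein genes, so shares are also given with those UMIs left out of the total. Foxp3 had a UMI in 28.95% of the cells: in 30.5% of the cells outside a B cell-like cluster, and in 4.84% of the 124 cells inside it, at median depths of 977 and 896 UMIs. Doublets were not called. At the median depth 1 UMI equals 1027 UMIs per 1000000 (CPM), so single genes were read from UMIs pooled over cells.

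Members were abundant and found in every kept cell. They gave 31405 UMIs, 1.456% of the total (1.44% to 1.473%), or 2.254% of the UMIs outside ribosomal protein genes. A cell held between 1 and 91 member UMIs, with a median of 14. Of the 82 detected members, 65 had at least 100 UMIs (79.3%), compared with 24.2% of all detected genes, and the median was 249 UMIs per member against 33 per detected gene. ATP synthase was the largest class with 4558 CPM (4469 to 4649), from 15 of 15 rows detected. Complex I followed with 3967 CPM (3884 to 4052) from 37 of 38 rows, complex IV with 3494 CPM (3416 to 3574) from 12 of 17, and complex III with 1601 CPM (1548 to 1656) from 8 of 8. Ndufa4 is counted in complex I by its name, although its protein is now assigned to complex IV. With Ndufa4 moved, complex I had 3727 CPM (3646 to 3810) and complex IV 3734 CPM (3653 to 3817), and their order could not be told. Per detected gene the order differed: the median was 342.7 CPM in ATP synthase, 279 CPM in complex IV, 134.3 CPM in complex III and 97.39 CPM in complex I. Since UMIs count transcript ends, levels of different genes were compared without division by length.

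**Figure D1:**
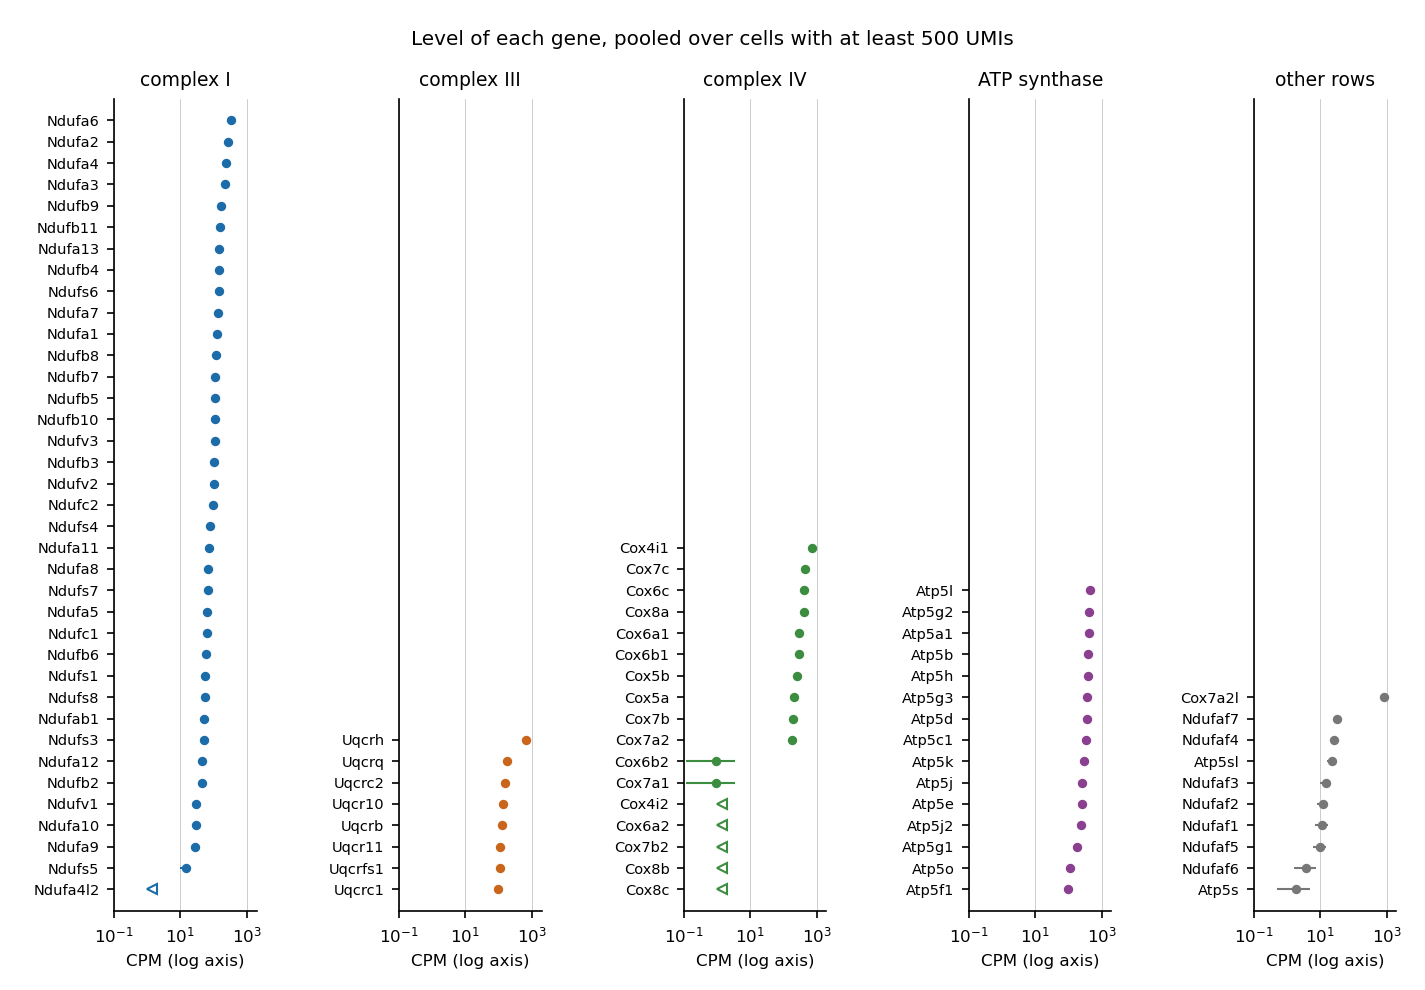
Pooled level of single genes in CPM (log axis; 1 of the 88 is not drawn), 1 panel per complex, over 2055 cells of 1 library. Points are levels, bars the exact 95% Poisson interval of the count, and open triangles mark the limit of 3 counts for the 6 genes with no UMI. The 10 ubiquitous complex IV genes sit between 179 and 750.8 CPM while the tissue-restricted isoforms sit at or near 0.

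Complex I joins many small accessory subunits to a core that carries the electrons. Ndufa6, an accessory subunit on the matrix arm, was the highest with 345 CPM (320.7 to 370.7) and a UMI in 30.32% of cells. Ndufa2 followed with 271.8 CPM and Ndufa4 with 240.2 CPM. The lowest detected row was Ndufs5 with 32 UMIs (14.84 CPM, 10.15 to 20.95), which put Ndufa6 23.25-fold above it (16.33 to 34.24). The annotation bears on that value: 47.8% of the 50-base stretches at the end of Ndufs5 transcripts also occur in BC002163, a near copy, which had 138 UMIs in the table. How reads that fit both genes were assigned is not given in the sources used here, so the level of Ndufs5 is uncertain. Ndufa9 (61 UMIs, 28.29 CPM), Ndufa10 (65 UMIs) and Ndufv1 (66 UMIs), the flavoprotein that binds NADH, were the next lowest. None of these latter values reached 40 CPM at the upper end of their intervals. Among core subunits, Ndufv2 stood at 102.5 CPM, Ndufs7 at 67.25 CPM, Ndufs1 and Ndufs8 at 54.26 CPM each, and Ndufs3 at 53.8 CPM.

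In complex III a single gene stood apart. Uqcrh, the acidic hinge protein that helps bind cytochrome c, lies on chr4:116066965-116075070 and had 1463 UMIs (678.5 CPM, 644.2 to 714.2) in 49.54% of cells. Uqcrq, a small accessory subunit, was next with 178.1 CPM, and the core protein Uqcrc2 with 157.7 CPM. The remaining rows were close together, down to Uqcr11 (112.2 CPM), the Rieske iron-sulfur protein Uqcrfs1 (108.5 CPM) and the other core protein Uqcrc1 (97.85 CPM, 85.1 to 112). The intervals of these last 3 overlap. Uqcrh made the spread of the complex 6.934-fold (5.998 to 8.049).

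Several subunits of complex IV have a form used in most tissues and others restricted to heart and muscle, lung or testis. In these cells the choice among such forms was close to complete. Cox4i1, the regulatory subunit IV, was the highest subunit of all with 1619 UMIs (750.8 CPM, 714.7 to 788.3) in 51.14% of cells, and its lung isoform Cox4i2 had none. Against the limit of 3 counts that a zero allows over the pooled cells, Cox4i1 was 539.7-fold higher, with a lower bound of 438.4. The heart and muscle form Cox6a2 also had no UMI, against 658 for Cox6a1, 219.3-fold on that limit (from 177.9). Cox7b2 had none against 415 for Cox7b, 138.3-fold on that limit (from 112). Cox8b and Cox8c had none against 900 for Cox8a, 300-fold on that limit in each case (from 243.5). Cox6b2 and Cox7a1 had 2 UMIs each, and the ratio of Cox6b1 to Cox6b2 was 315.5 (86.98 to 2611) and that of Cox7a2 to Cox7a1 193 (53.07 to 1599). Ndufa4l2, the hypoxia-linked relative of Ndufa4, had none against 518 (172.7-fold on the limit of 3 counts, from 139.9). For a gene with no UMI in 2055 cells, 3 counts set the limit: up to 0.146% of cells could have a UMI at this depth, which says nothing of cells that express it below detection. With the isoforms of 2 UMIs included, the highest detected subunit of the complex was 809.5-fold above the lowest (223.7 to 6690). Among the 10 rows with at least 20 UMIs it was 4.194-fold, from Cox4i1 through Cox7c (457.7 CPM), Cox6c (419.7 CPM) and Cox8a (417.4 CPM) to Cox7a2 (179 CPM).

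ATP synthase was narrow in its levels, as were the 10 complex IV rows just described. Atp5l, subunit g of the membrane part, had 447.1 CPM (419.3 to 476.2), and the stalk subunit Atp5f1 the fewest with 96 CPM (83.37 to 110), a ratio of 4.657 (4.004 to 5.438). The catalytic head is built from equal copies of the alpha and beta subunits, and their transcripts were also near each other: Atp5a1 had 412.7 CPM and Atp5b 400.7 CPM, a ratio of 1.03 (0.937 to 1.132). The gamma subunit Atp5c1, of which the enzyme holds a single copy, had 342.7 CPM, so that Atp5a1 was 1.204-fold above it (1.091 to 1.33). Atp5o, the oligomycin sensitivity protein, was low with 112.7 CPM. Of its terminal 50-base stretches 44% also occur in other annotated genes, 1 of them in the table with 66 UMIs. The level of Atp5o is therefore uncertain. Subunit c, the proton-carrying ring, is encoded by the isoform genes Atp5g1, Atp5g2 and Atp5g3, which yield the same mature protein. They shared the transcripts of the family as 18.65%, 43.28% and 38.07%. Atp5g2 exceeded Atp5g3 by 1.137-fold (1.033 to 1.252) and Atp5g1 by 2.321-fold (2.058 to 2.62). Atp5g1 shares 36% of its terminal 50-base stretches with other annotated genes, and 5 of these rows together had 826 UMIs, so its level is uncertain as well. In all, 31 of the 82 members shared at least 1 such stretch, and in Cox7c, Atp5l, Atp5g2, Atp5h and Ndufs3 more than 50% were shared.

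The highest row of all the members was no subunit of a single complex. Cox7a2l, known as an assembly factor for supercomplexes of complexes III and IV, lies on chr17:83501917-83514333. It had 1749 UMIs (811.1 CPM, 773.5 to 850) in 54.84% of cells. These are transcript levels, and whether the protein works in this strain was not examined. Cox7a2l transcripts outnumbered those of its relative Cox7a2 by 4.531-fold (4.056 to 5.072). None of the terminal stretches of Cox7a2l was shared with another annotated gene. The 7 Ndufaf assembly factors were rare in comparison, with 233 UMIs together (108.1 CPM), from Ndufaf7 with 67 UMIs to Ndufaf6 with 8. Atp5sl had 48 UMIs and Atp5s 4.

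The rest of the respiratory pathway was read from gene lists beside the members. Complex II and the cytochromes c, 6 of 6 genes detected, gave 711.4 CPM, led by cytochrome c itself (Cycs, 179.5 CPM) and the succinate dehydrogenase subunits Sdha (156.3 CPM) and Sdhb (109.4 CPM). Assembly factors outside the naming rule were low, with a median of 25.04 CPM over 29 genes, and the copper chaperone Cox17 was the highest with 131.7 CPM, followed by Cox14 (122.9 CPM) and Higd2a (114.1 CPM). Carriers of the inner membrane reached member levels: the uncoupling-family protein Ucp2 had 568.1 CPM, the phosphate carrier Slc25a3 516.6 CPM and the ADP/ATP carrier Slc25a5 440.6 CPM. Among the accessory genes of ATP synthase, 2010107E04Rik, a small proteolipid, had 390 CPM, Usmg5 150.3 CPM and the inhibitor Atpif1 66.32 CPM. Pyruvate dehydrogenase and the tricarboxylic acid cycle gave 1448 CPM from 16 genes, with Ogdh at 334.8 CPM and Mdh2 at 178.5 CPM. Glycolysis gave 1837 CPM from 15 genes, led by Ldha (418.8 CPM), Pkm (339.9 CPM) and Gapdh (332.5 CPM). Regulators of mitochondrial biogenesis were scarce: Myc had 88.11 CPM, the mitochondrial transcription factor Tfam 86.26 CPM and Yy1 85.33 CPM, while the coactivator Ppargc1a had no UMI.

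Across cells the summed members varied somewhat more than counting alone would give. The squared deviation of a cell's member UMIs from its expected number at its depth, divided by that number, averaged 1.426, where counting noise gives 1. The members' own variances accounted for 0.9982 of this index, and covariance between members for the other 0.4279. On that basis the true member share had a coefficient of variation of 21.2% across cells. The single complexes were at 1.184 (I), 0.9456 (III), 1.149 (IV) and 1.141 (ATP synthase), and the glycolysis list, with fewer UMIs, at 1.177. Ribosomal protein genes, with far more UMIs per cell, were at 15.06. The index rises with the UMIs of a set, so it does not rank the sets. The coefficient of variation was 41.3% for glycolysis and 19.6% for ribosomal protein genes. By complex it was 24.9% (I), 2.96% (III), 27.2% (IV) and 24.8% (ATP synthase). For complex III without Uqcrh it was 30%, with an index of 0.9993. The index differed with depth. It was 1.17 when each cell was thinned to 500 UMIs, 1.69 in the 944 cells with at least 1000 UMIs, and 1.32 without the 30 cells above 2500 UMIs.

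**Figure D2:**
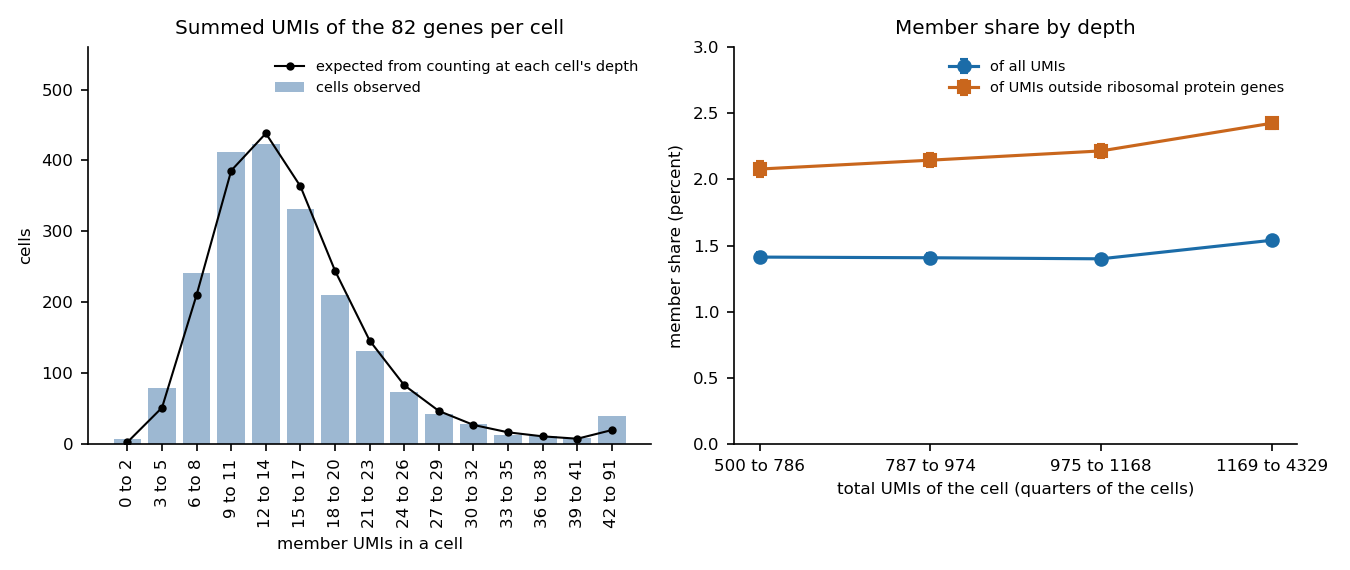
Left, the number of cells (bars) by their summed member UMIs, and the number expected if each cell had the mean share at its own depth (line). Right, member share of all UMIs and of UMIs outside ribosomal protein genes, in 4 groups of cells by depth, with exact 95% Poisson intervals. Cells were more numerous than expected below 12 member UMIs, 39 cells against 19.88 expected had 42 or more, and the deepest group had the largest share on both scales.

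The share of members was tied to depth. It was 1.413% (1.374% to 1.453%) in the shallowest of 4 groups of cells by depth (500 to 786 UMIs), 1.408% and 1.4% in the middle groups and 1.54% (1.513% to 1.567%) in the deepest (1169 to 4329 UMIs). On the scale without ribosomal UMIs it was higher in each deeper group, from 2.078% to 2.145%, 2.215% and 2.424%, while the ribosomal share itself went from 31.99% to 36.49%. Between the shallowest and deepest group complex IV went from 0.3193% (0.3007% to 0.3387%) to 0.383% (0.3697% to 0.3967%) of UMIs, and complex III from 0.1436% (0.1312% to 0.1568%) to 0.1726% (0.1636% to 0.1818%). The non-subunit rows, mostly Cox7a2l, went the other way, from 0.09968% to 0.08604%, with intervals that overlap. Whether deeper cells held more RNA or were captured more fully cannot be told apart.

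Correlations between members were small. They were taken across the 2055 cells on Pearson residuals, which scale each count by what the cell's depth predicts; the member sum still had r = 0.215 with the total UMIs of a cell. These cells share a library and its capture efficiency, and most counts are 0 or 1, so the values serve as a description. Over the 65 members with at least 100 UMIs the mean of 2080 pairwise r values was 0.00716, against 0.000865 over all 4900015 pairs of genes of that abundance. Positive values made up 59.9% of member pairs and 49.4% of all pairs. By complex the mean r was 0.0212 in complex IV (45 pairs, 77.8% positive), 0.0106 in ATP synthase, 0.00522 in complex I and -0.000979 in complex III. Pooled, pairs within a complex (mean 0.00695) were not higher than pairs of different complexes (mean 0.00824). Of the 643 pairs within a complex 465 were of complex I, so the pooled mean is weighted to that complex. Complex IV lay above its means with the other complexes (0.00907 to 0.0156), and complex III below its own (0.00218 to 0.00907). Complex I and ATP synthase lay between the lowest and the highest of theirs. Thinning each cell to 500 UMIs lowered the mean over all member pairs to 0.00353, and in the cells with at least 1000 UMIs it was 0.0129.

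Single pairs were led by the complex IV subunits Cox5a and Cox5b, both on its matrix side, with r = 0.118. The next were Ndufa5 with Uqcr10 (0.0866), Atp5b with Atp5g1 (0.0746), Atp5j2 with Ndufb7 (0.0738) and Ndufb9 with Ndufv2 (0.0728). Cox5b with Uqcr11, Cox7c with Ndufs8, Ndufa4 with Ndufa7, Cox5a with Ndufs6 and Atp5e with Ndufb7 lay between 0.0702 and 0.0714. Of these 10 pairs, 4 joined genes of the same complex. Values of this size in sparse counts are not read as links between particular genes. Summing the residuals over a complex before correlating raised r to 0.172 for complex I with ATP synthase, 0.163 for complex IV with ATP synthase and 0.148 for complex I with complex IV. The sum of complex III, which has the fewest genes (8) and UMIs, had lower r with complexes I (0.0333) and IV (0.0712) and with ATP synthase (0.05). A sum of fewer UMIs holds more counting noise, so these values do not rank the complexes. Pairs of genes with few UMIs are noisier too, so the pairwise means that follow do not rank the complexes either. Pair by pair, the mean r of complex III was 0.00218 with complex I, 0.00907 with complex IV and 0.0049 with ATP synthase. It was 0.00997 for complex I with complex IV, 0.00864 for complex I with ATP synthase and 0.0156 for complex IV with ATP synthase.

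Each member was then set against the sum of all the others. Of the 65, 33 had an r above 0.05 (50.8%), against 12.7% of the 1477 other genes with at least 200 UMIs set against the member sum. Atp5k, subunit e of ATP synthase, was highest with 0.124, followed by Cox5a (0.121), Ndufa4 (0.112) and the zinc-binding complex I subunit Ndufs6 (0.11). A value below 0 was found for 7 of the 65. The most negative were the most abundant row and the third most abundant: Cox7a2l with -0.0812 and Uqcrh with -0.0614. Both ran with the ribosomal protein genes, with r = 0.144 for Cox7a2l and 0.0632 for Uqcrh against the ribosomal sum. On that axis 54 of the 65 members were below 0, and the median was -0.0334. The same count was not made over other genes, so it is not read as particular to the members. Above 0 were 11 members, among them Ndufa6 (0.07) and Atp5g2 (0.0568), which were positive against the other members. Rps24 (0.146) and Fau (0.124) were among the nearest partners of Cox7a2l, and its most negative member partner was Cox6c (-0.0901). Cox4i1, of nearly the same abundance as Cox7a2l, was positive against the other members (0.0345) and against the ribosomal sum (0.0425). Without Cox7a2l and Uqcrh the index of the members was 1.548 in place of 1.426 and the mean pairwise r 0.00838.

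**Figure D3:**
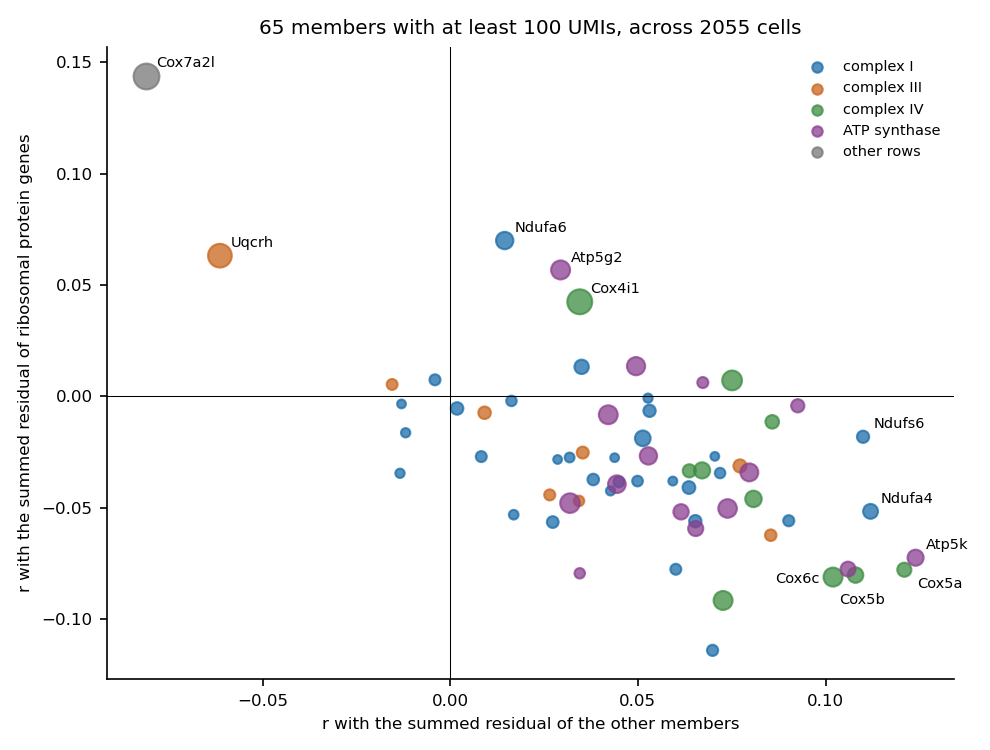
Each point is 1 of the 65 members with at least 100 UMIs, with its area growing with its UMIs and its colour by complex; the axes give its correlation r, across 2055 cells, with the sum of the other members and with the sum of ribosomal protein genes. Cox7a2l and Uqcrh lie farthest to the upper left, with Uqcrfs1 and Ndufb5 near the origin on the same side. Atp5k, Cox5a, Ndufa4 and Ndufs6 lie at the right.

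The member sum had r = 0.153 with glycolysis, 0.0997 with mitochondrial carriers, 0.0878 with complex II and the cytochromes c and 0.0846 with the tricarboxylic acid cycle list. With the ribosomal sum it was -0.172. The other pathway lists were negative with the ribosomal sum as well, from -0.178 for glycolysis to -0.062 for regulators of mitochondrial biogenesis. The negative sign is therefore not particular to the members. Among genes outside the naming rule, those most like the member sum were Tuba1b, an alpha-tubulin (0.167), the translation factor Eif5a (0.159), cyclophilin A (Ppia, 0.152), Ptma (0.142), Ybx1 (0.142), the histone variant H2afz (0.139), gamma-actin (Actg1, 0.137), the nucleoside diphosphate kinase Nme1 (0.133), Set (0.133) and the proteasome subunit Psmb3 (0.132). None of these is a mitochondrial respiratory gene. Among the most unlike were Rps27 (-0.175), Rpl17 (-0.165), Tpt1 (-0.157) and Rps7 (-0.142), and 16 of the 20 lowest were ribosomal protein genes.

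To place the members in cell states, cells were clustered on 1000 variable genes with all member, ribosomal, glycolysis and other listed pathway genes left out of the features. Of 9 clusters, 4 were named from marker lists, and the thresholds for a name were set after the data had been seen. The resting Treg-like cluster had 486 cells, with 4 of 10 markers raised at least 1.5-fold, among them Igfbp4. The activated Treg-like cluster had 150 cells led by Klrg1, S100a4, Ccr2, Icos and Maf. A B cell-like cluster of 124 cells also carried myeloid and neutrophil genes (Lyz2, S100a9), and 66 cells were proliferating-like, led by histone genes. Other cells stayed unnamed, including 266 cells led by Gzma, Ccl5, Egr1, Nkg7 and Nr4a1.

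Member levels differed little between clusters. The share of all UMIs ran from 1.345% (1.283% to 1.409%) in the B cell-like cluster to 1.652% (1.608% to 1.698%) in the unnamed cluster led by Gzma and Egr1. The activated Treg-like cluster stood at 1.617% (1.556% to 1.68%), and its interval overlapped that of the highest cluster. The other 6 clusters lay between 1.389% and 1.455%, and the proliferating-like cells were among them with 1.43%. Without ribosomal UMIs in the total the order changed: the cluster led by Gzma and Egr1 stayed highest with 2.491%, the resting cells had 2.29%, the activated cells 2.182% and the B cell-like cluster was lowest with 1.868%. Cox7a2l was lowest in the activated cells, with 508.4 CPM (404.9 to 630.2), next lowest in the B cell-like cluster with 619 CPM, and between 740.3 and 894 CPM in the other 7. Cox6c was highest in the activated cells with 655.4 CPM (537.1 to 791.9), against 292.7 to 484.6 CPM elsewhere. Uqcrh was lowest in the B cell-like cluster (489.1 CPM) and between 589.4 and 796 CPM in the others.

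**Figure D4:**
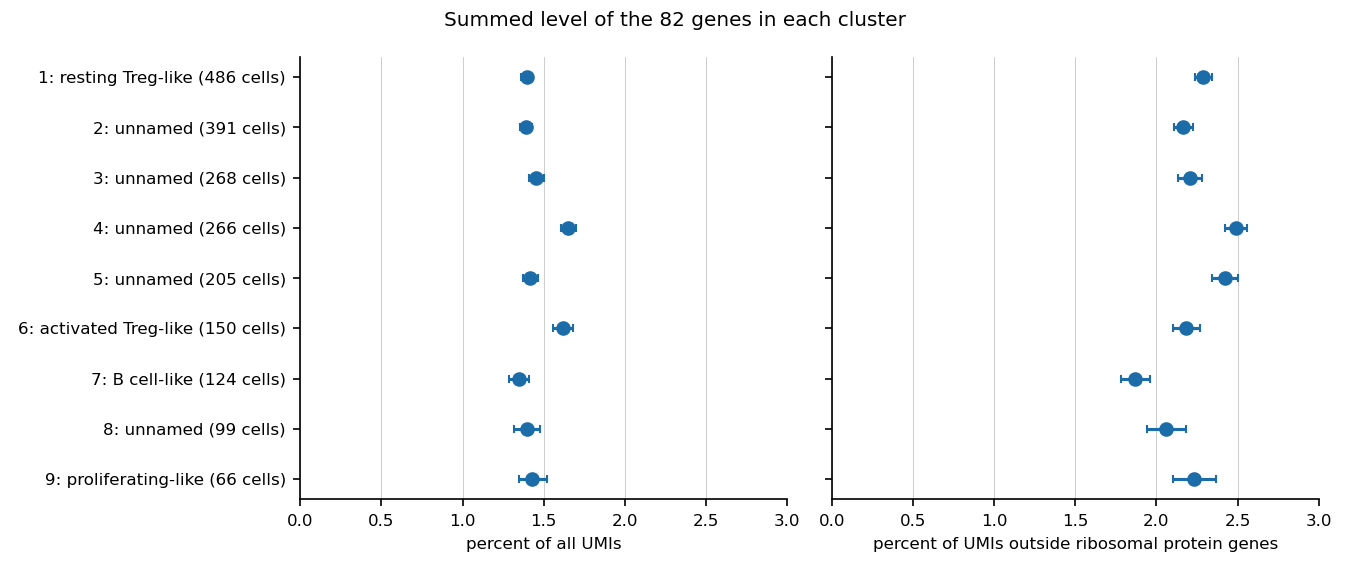
Summed level of the 82 genes in each of 9 clusters as percent of all UMIs (left) and of UMIs outside ribosomal protein genes (right), with exact 95% Poisson intervals. Clusters 4 and 6 lie to the right of the others on the left scale; on the right scale cluster 6 lies left of cluster 1.

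The activated and the resting Treg-like clusters were compared directly. Members had 16170 CPM in activated and 13950 CPM in resting cells, a ratio of 1.159 (1.108 to 1.212). The ribosomal share was 25.9% in the former and 39.1% in the latter, and leaving those UMIs out of the total turned the direction, to 0.9528 (0.9108 to 0.9965). That change of scale moves the log2 ratio of every gene by -0.283. Complex IV had the highest ratio, 1.312 (1.199 to 1.434), and remained above 1 on the other scale at 1.078 (0.9851 to 1.179), where the interval includes 1. Complex I stood at 1.191 and 0.9786, ATP synthase at 1.164 and 0.957, and complex III at 1.078 and 0.8861. The glycolysis list was at 1.457 (1.29 to 1.643) and 1.197 (1.06 to 1.35).

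By gene, 13 of the 69 members with at least 20 UMIs over both clusters were at least 1.5-fold higher in activated cells, against 29.8% of the 4024 genes compared (those of the same abundance that were no clustering feature), and 5 were at least 1.5-fold lower, against 11.1%. Without ribosomal UMIs the counts became 4 higher and 10 lower, against 15.7% and 20.5% of all genes. Without the cells that had a UMI of a myeloid or neutrophil marker, 20 of 62 members were higher, against 29.3% of all genes, and 7 lower, against 18.1%. The median log2 ratio was 0.334 for the 69 members and 0.274 for all genes, or 0.0514 and -0.00891 without ribosomal UMIs. The 13 were 10 of the 35 genes measured in complex I, 2 of 10 in complex IV and 1 of 15 in ATP synthase. None of the 8 in complex III was among them. The share in complex I was thus close to the 29.8% of all genes.

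Among members with at least 50 UMIs over both clusters, the ATP synthase stalk gene Atp5f1 had 177.6 CPM in activated and 80.91 CPM in resting cells, a ratio of 2.195 (1.316 to 3.619). The complex I subunit Ndufv3 followed with 2.089 (1.321 to 3.269), then Cox6c with 1.825 (1.423 to 2.329), Ndufa7 with 1.752 (1.123 to 2.694) and Cox5a with 1.721 (1.197 to 2.448). On the scale without ribosomal UMIs these 5 ranged from 1.414 to 1.804. Cox7a2l had the lowest ratio, with 508.4 CPM in activated and 894 CPM in resting cells, 0.5687 (0.4445 to 0.72), and 0.4674 on the other scale. The next were Atp5o (0.6421, 0.3139 to 1.209), Cox7b (0.6839, 0.4291 to 1.053), Ndufa6 (0.7061, 0.4948 to 0.9878) and Ndufs7 (0.739, 0.3306 to 1.497). Of these 5, the interval was wholly below 1 for Cox7a2l and Ndufa6. Cox4i1 was nearly level with 882 and 799.2 CPM (1.104, 0.906 to 1.338), as was Uqcrh with 643.1 and 692.7 CPM (0.9285, 0.7393 to 1.158).

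**Figure D5:**
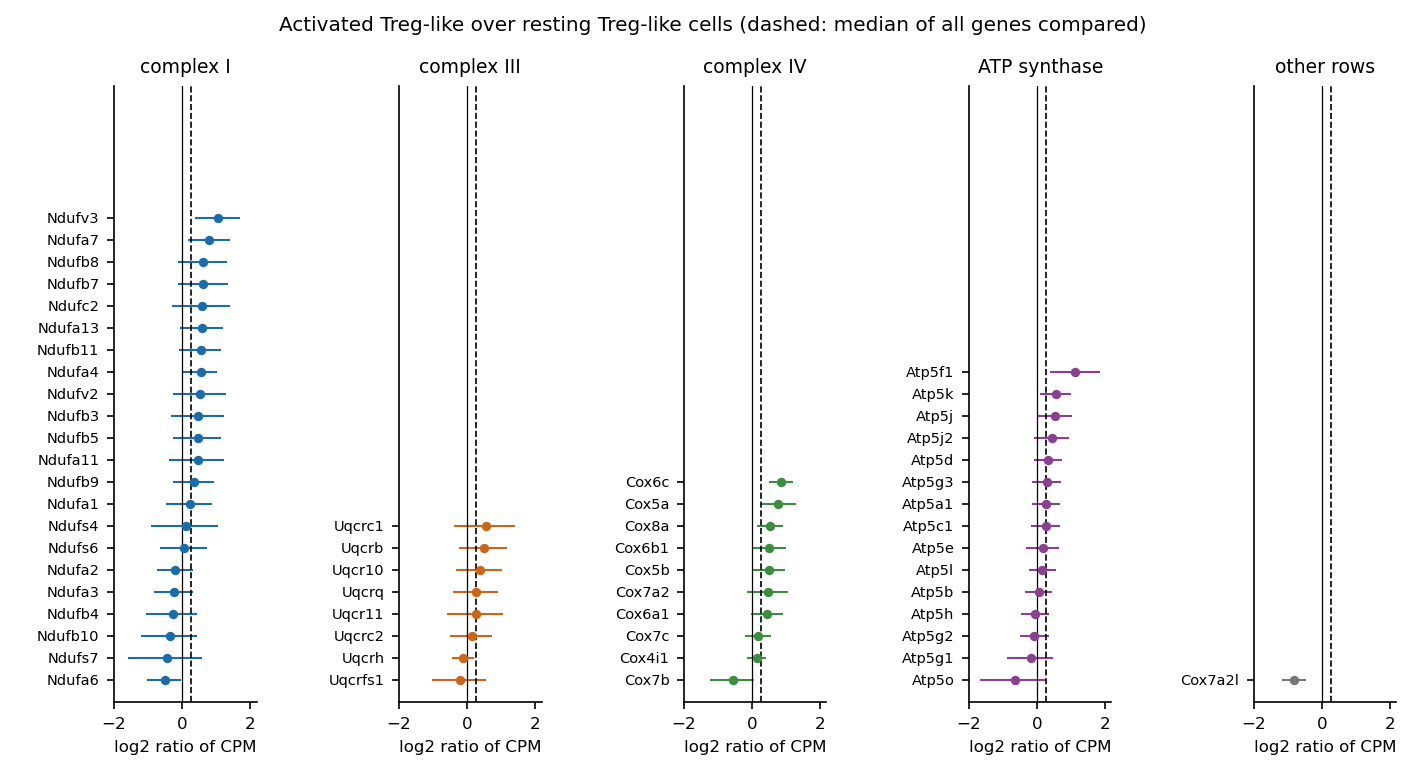
Log2 ratio of pooled CPM, activated Treg-like (150 cells) over resting Treg-like (486 cells), for members with at least 50 UMIs over both clusters (1 is not drawn), with exact conditional 95% intervals. Most complex IV genes lie right of 0, Cox7a2l lies left of it, and the dashed line at 0.274 marks the median of all 4024 genes compared.

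The other lists were read against the same shares of all genes. Of 12 glycolysis genes measured, 9 were at least 1.5-fold higher in activated cells and none lower, against 29.8% and 11.1% of all genes. Without ribosomal UMIs 2 of the 12 were higher, close to the 15.7% of all genes. Gapdh had a ratio of 1.795 (1.358 to 2.36) and Pkm 1.606 (1.196 to 2.141), while Ldha was at 0.9015 (0.6807 to 1.181). Of the carriers, 2 of 7 were higher, close to the 29.8% of all genes, and without ribosomal UMIs 1 was higher and 1 lower. Ucp2 had 839.1 against 566.4 CPM, a ratio of 1.482 (1.2 to 1.822). The ATP synthase inhibitor Atpif1 had 22 and 23 UMIs, a ratio of 2.969 (1.578 to 5.572). Complex II and the cytochromes c were at 1.051 (0.8526 to 1.289) as a sum, with 1 of 6 genes higher, and at 0.8639 (0.7008 to 1.059) without ribosomal UMIs, with 1 lower. The tricarboxylic acid cycle list was at 1.098 (0.9444 to 1.273), with 1 of 13 higher and 1 lower, and at 0.9025 (0.7762 to 1.046) without ribosomal UMIs, with 3 lower. All 4 of these intervals include 1, and the counts of higher genes lie below the 29.8% of all genes.

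Markers of other states and cell types differed beside these ratios, and their part in them was not tested except as given here. The 10 proliferation markers summed to 686 CPM in activated and 134.2 CPM in resting cells, and 4 of the 10 were at 0 in the resting cells. The 9 myeloid markers summed to 1096 and 455.9 CPM, with 2 and 6 of them at 0. Neutrophil markers gave 116.4 and 1.973 CPM, from 19 and 1 UMIs. B cell markers gave 79.62 and 19.73 CPM, from 13 and 10 UMIs, with 5 and 3 of 8 at 0. Conventional T cell markers gave 287.9 and 116.4 CPM, with 5 of 6 at 0 in each cluster. CD8 T cell markers gave 183.7 and 59.2 CPM, with 1 of 4 at 0 in each cluster. NK and innate lymphoid markers gave 36.75 and 7.894 CPM, from 6 and 4 UMIs, with 5 and 4 of 6 at 0. Plasma cell markers were level, at 61.25 and 61.18 CPM. Of 5 epithelial markers 1 was detected, with 11 and 3 UMIs. The ratio of all members was 1.13 (1.069 to 1.193) without the cells that had a UMI of a proliferation marker, and 1.18 (1.088 to 1.27) without those that had one of a myeloid or neutrophil marker. Median depth was 931 UMIs in activated and 1022 in resting cells.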

How the data were processed

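The authors deposited 1 table of UMI counts per gene and cell, whole numbers with no normalization. The labels' protocols describe reverse transcription from oligo dT in inDrops droplets and sequencing on a NextSeq500. TopHat2, SAMtools and mm10 are named in the submitters' processing notes. The gene annotation and the treatment of reads that fit several genes are not given in the sources used here. Each GEO sample is 1 cell of 1 library.

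Cells with at least 500 UMIs were kept. Levels are UMIs pooled over cells per 1000000 UMIs (CPM), with exact Poisson intervals, shares of cells with Clopper-Pearson intervals, and ratios with exact conditional intervals. Reads carry UMIs, but intervals cover counting error only. Correlations used analytic Pearson residuals (theta 100). Clusters came from 15 principal components, 20 neighbours and Leiden resolution 0.8 (leidenalg 0.10.2, python-igraph 0.11.9, scikit-learn 1.9.0, numpy 2.4.6, scipy 1.17.1, pandas 2.3.3, matplotlib 3.10.9, Python 3.11.15). A cluster was named where at least 3 detected markers of a list were 1.5-fold above the other cells, the list's median was at least 1.4-fold, and at least 1 marker was among the 10 leading genes. Names of cells other than T cells also required Foxp3, Ikzf2 and Il2ra together below 0.8 of the other cells. Shared 50-base stretches were sought in the last 300 bases of GENCODE M21 transcripts. All 88 symbols matched RefSeq (GRCm38.p6), 3 of them as older symbols. Genes named are the 3 highest and 3 lowest of each complex, all isoform family members, the 5 highest and 5 lowest ratios, the 10 highest pairs, the 10 most and 5 least alike genes and the 3 highest of each list; others were chosen after their values were seen. The members and lists were chosen with earlier results of these data known. The ratio, dispersion and correlation steps were tested on simulated data. Some genes that this rule names are not reported here.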

Additional observations from a re-analysis of the deposited data

Results flagged for a closer look

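The 184 cells with fewer than 500 UMIs entered no comparison, and member transcripts were present in them: 902 of their 70683 UMIs, or 1.276% (Clopper-Pearson 1.195% to 1.362%). The share lies below the 1.456% of the kept cells, and 74 of the 82 members were seen. With no empty droplets at hand, the part of free RNA in these cells was not tested.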

How the results depend on the processing

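The member share was 1.46% of UMIs. It was 1.49% in cells with at least 1000 UMIs, 2.25% with ribosomal UMIs out of the total, and 1.36% without the 10 rows that are no subunits. The complex IV spread of 809.5-fold became 4.19-fold among subunits with at least 20 UMIs, an alternative chosen after seeing the data, as the isoforms with 2 UMIs then drop out. The mean pairwise r of 0.00716 became 0.0129 in cells with at least 1000 UMIs and 0.00353 after thinning to 500 UMIs; the cause was not tested. The activated to resting ratio of 1.16 reversed to 0.953 without ribosomal UMIs, and with it complex I to 0.979 and ATP synthase to 0.957, as the ribosomal share differs between the clusters. The 18 members past 1.5-fold became 11 with at least 50 UMIs over both clusters and 6 at 2-fold, 24 at resolution 1.2 and with classes from marker UMIs, and 27 without cells that had a myeloid or neutrophil UMI. The shares of all genes beside the 18 and the 27 are given above. The counts between them stand without such shares and are not read as results about the members. Other settings that gave a value left the ratio of all members between 1.12 and 1.21. No resting Treg-like cluster could be named with cells of at least 300 or 1000 UMIs, 500 variable genes, 30 components or resolution 0.5, so these 5 settings gave no ratio, and the comparison rests on the clustering chosen. No replicate could be left out of 1 library. No paired analysis was possible because there is 1 library and no test. Depth limits single genes: members under about 100 UMIs have wide intervals and were left out of the correlations.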
